A study of Mus musculus with 18 samples.

Results

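The Hoxa cluster is a row of developmental transcription factor genes on mouse chromosome 6. Its methylation was read from whole-genome bisulfite sequencing of CD11b+ (myeloid) and CD4+ (T helper) cells of the spleen. The members described are the listed regions that touch chr6:52150000-52265000 (mm10). There were 69 such regions of 411770 in the table of CD11b+ cells and 87 of 553467 in that of CD4+ cells. Each region was given to the nearest of 9 genes, Hoxa2, Hoxa3, Hoxa4, Hoxa5, Hoxa6, Hoxa7, Hoxa9, Hoxa10 and Hoxa11, by distance to the coding span. The window was selected on its methylation difference between genotypes in these tables, so that difference is given as a description, with no test of the members.

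The compared genotypes were Dnmt3a+/+ (WT) and Dnmt3a R878H/+, with 4 mice per genotype and cell type, taken from young adult animals on a C57BL/6 background. The mutant mice carried 1 floxed R878H allele of the DNA methyltransferase gene Dnmt3a that was switched on by Vav1-iCre, a transgene active throughout the blood system, so every blood lineage could carry the mutation and the cells were not mixed with WT competitors. CD11b+ and CD4+ cells were taken from the spleen on magnetic columns, and each is a mixture of subsets. Dnmt3a R878H/+ CD11b+ cells have 6 sample entries for 4 replicates, and every table mean is built from 4 samples. The tables give group means only, so no value has an error between mice, no read depth stands behind a mean, and the identity of the cells cannot be checked against marker expression. Neither table says which group is which. The first was read as WT because WT is the more methylated genotype in the study's genome-wide plots, and every direction rests on that reading.

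Hox proteins are homeodomain transcription factors that give cells their position along the body axis. Their genes lie in the order in which they act, from anterior (such as Hoxa2) to posterior (such as Hoxa13), and all Hoxa genes are read from the minus strand. In blood, Hoxa5, Hoxa7, Hoxa9 and Hoxa10 are known for high expression in stem and progenitor cells and for falling expression as cells mature. DNMT3A places methyl groups on CpG dinucleotides that carry none, and the mouse R878H change corresponds to a recurrent human mutation in its catalytic domain. No expression was measured in these libraries.

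The stretches below are mm10 sequence, printed 5′ to 3′ with each CpG in capitals, since CpG is where methylation was measured. The first covers the 300 bases upstream of the Hoxa5 start, the only start of the 9 genes that lay in a region called hypomethylated in both cell types (chr6:52204588-52204887, minus strand, 29 CpGs). The next comes from the Hoxa3 region with the largest difference in CD11b+ cells, beside the start of the gene 5730596B20Rik (chr6:52177147-52177446, plus strand, 17 CpGs). For contrast, the bases upstream of 3 starts outside every called region follow: Hoxa2 (chr6:52164832-52165131, minus strand, 6 CpGs), Hoxa6 (chr6:52208723-52209022, minus strand, 27 CpGs) and Hoxa10 (chr6:52234940-52235239, minus strand, 20 CpGs). The last is the 56-base region with the largest gain in Dnmt3a R878H/+ CD11b+ cells (chr6:52196910-52196965, plus strand, 5 CpGs). It held too few cytosines to be called. The far end of the Hoxa2 stretch reaches into a called region, though its start does not. The last and the Hoxa3 stretch were chosen after their values were seen.
Hoxa5 upstream: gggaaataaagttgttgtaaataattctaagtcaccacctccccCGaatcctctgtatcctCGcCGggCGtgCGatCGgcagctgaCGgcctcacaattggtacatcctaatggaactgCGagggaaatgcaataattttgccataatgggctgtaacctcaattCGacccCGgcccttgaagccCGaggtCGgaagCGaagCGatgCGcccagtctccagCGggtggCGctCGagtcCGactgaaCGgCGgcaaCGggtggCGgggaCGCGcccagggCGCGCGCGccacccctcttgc
Hoxa3 upstream region: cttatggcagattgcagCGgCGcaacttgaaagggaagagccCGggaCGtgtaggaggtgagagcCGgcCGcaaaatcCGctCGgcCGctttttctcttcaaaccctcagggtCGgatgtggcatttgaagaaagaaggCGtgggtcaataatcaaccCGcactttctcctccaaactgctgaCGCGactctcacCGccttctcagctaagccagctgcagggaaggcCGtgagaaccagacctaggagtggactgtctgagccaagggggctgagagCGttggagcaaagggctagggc
Hoxa2 upstream: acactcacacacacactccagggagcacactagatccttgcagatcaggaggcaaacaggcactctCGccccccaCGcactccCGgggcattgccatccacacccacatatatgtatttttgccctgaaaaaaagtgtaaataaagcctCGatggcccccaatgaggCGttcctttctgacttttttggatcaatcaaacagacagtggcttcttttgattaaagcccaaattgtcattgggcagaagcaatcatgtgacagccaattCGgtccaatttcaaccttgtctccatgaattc
Hoxa6 upstream: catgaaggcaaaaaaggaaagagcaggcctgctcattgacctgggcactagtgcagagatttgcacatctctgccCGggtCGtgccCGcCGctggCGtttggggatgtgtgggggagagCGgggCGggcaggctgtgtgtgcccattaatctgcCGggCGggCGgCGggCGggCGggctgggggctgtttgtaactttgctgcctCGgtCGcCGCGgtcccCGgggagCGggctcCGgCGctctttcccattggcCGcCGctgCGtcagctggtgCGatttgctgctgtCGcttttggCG
Hoxa10 upstream: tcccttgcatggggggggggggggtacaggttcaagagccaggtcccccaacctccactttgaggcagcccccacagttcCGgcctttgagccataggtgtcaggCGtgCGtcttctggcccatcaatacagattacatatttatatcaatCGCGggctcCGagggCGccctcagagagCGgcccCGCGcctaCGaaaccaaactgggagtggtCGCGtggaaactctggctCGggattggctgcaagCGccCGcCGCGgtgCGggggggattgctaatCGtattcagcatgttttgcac
Region higher in R878H/+: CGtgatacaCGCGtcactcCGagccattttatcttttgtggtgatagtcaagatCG

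Methylation in WT cells varied widely along the cluster, from nearly none to nearly complete, and it was lower in most regions of Dnmt3a R878H/+ cells. In CD11b+ cells the median region had a WT mean of 53.4%, beside 22.8% in Dnmt3a R878H/+. The corresponding medians of CD4+ cells were 60.4% and 27.2%. Methylation was lower in Dnmt3a R878H/+ in 65 of 69 regions of CD11b+ cells (94.2%) and in 84 of 87 of CD4+ cells (96.6%), much the same shares as the 93.4% and 95.5% of all listed regions. The median difference per region was 17.5 percentage points in CD11b+ cells and 16.2 points in CD4+ cells, beside 6.55 and 6.85 points over all listed regions. Of the methylation present in WT, the median Hoxa region kept 55.9% (CD11b+ cells) and 54.5% (CD4+ cells). The median region of the whole tables kept 92.4% and 92.1%. Low shares were not particular to Hoxa: the median region kept 65.8% and 62.6% in the Hoxb cluster. It kept 63.3% and 54.4% in Hoxc, and 69.3% and 67.6% in Hoxd.

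A region was called a differentially methylated region (DMR) if its q-value was below 0.05, its group means lay over 20 percentage points apart and it held more than 10 CpG cytosines. By this rule 14 of 43 Hoxa regions with more than 10 CpG cytosines were hypomethylated in Dnmt3a R878H/+ CD11b+ cells, or 32.6%, where 1.38% of all such regions in the table were. In CD4+ cells 15 of 51 were hypomethylated, or 29.4%, where the table's share was 1.49%. No Hoxa region was called hypermethylated in either cell type. That call was rare in the whole tables, at 0.0302% for CD11b+ and 0.00121% for CD4+ cells. The rule that chose the window used this same contrast, so nothing is read from these shares. The q-value treats every CpG cytosine of every sample as a data point, so it measures spread over cytosines and not over mice.

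The calls depended on how many cytosines a region held. Without the q-value, 19 Hoxa regions exceeded 20 points in CD11b+ cells, where 7.75% of all regions above 10 cytosines did, and 23 in CD4+ cells, where 6.89% did. With more than 20 CpG cytosines required, 8 of 10 Hoxa regions were called in CD11b+ cells, beside 9.69% of all such regions. In CD4+ cells 9 of 16 were called, beside 8.8%. Just inside the difference threshold in CD11b+ cells was a Hoxa3 exon region (91.4% to 66.4%), and just outside it a Hoxa7 region (22.8% to 3.71%). In CD4+ cells the called region nearest to the difference threshold was upstream of Hoxa5 (91.5% to 71.3%, q = 0.026), and the one nearest to the q-value threshold belonged to Hoxa3 (89.0% to 67.3%, q = 0.031). A region of Hoxa4 just missed on the q-value (70.9% to 36.7%, q = 0.056). A further 6 regions of CD11b+ and 8 of CD4+ cells differed by more than 20 points but held exactly 10 cytosines.

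**Figure D1:**
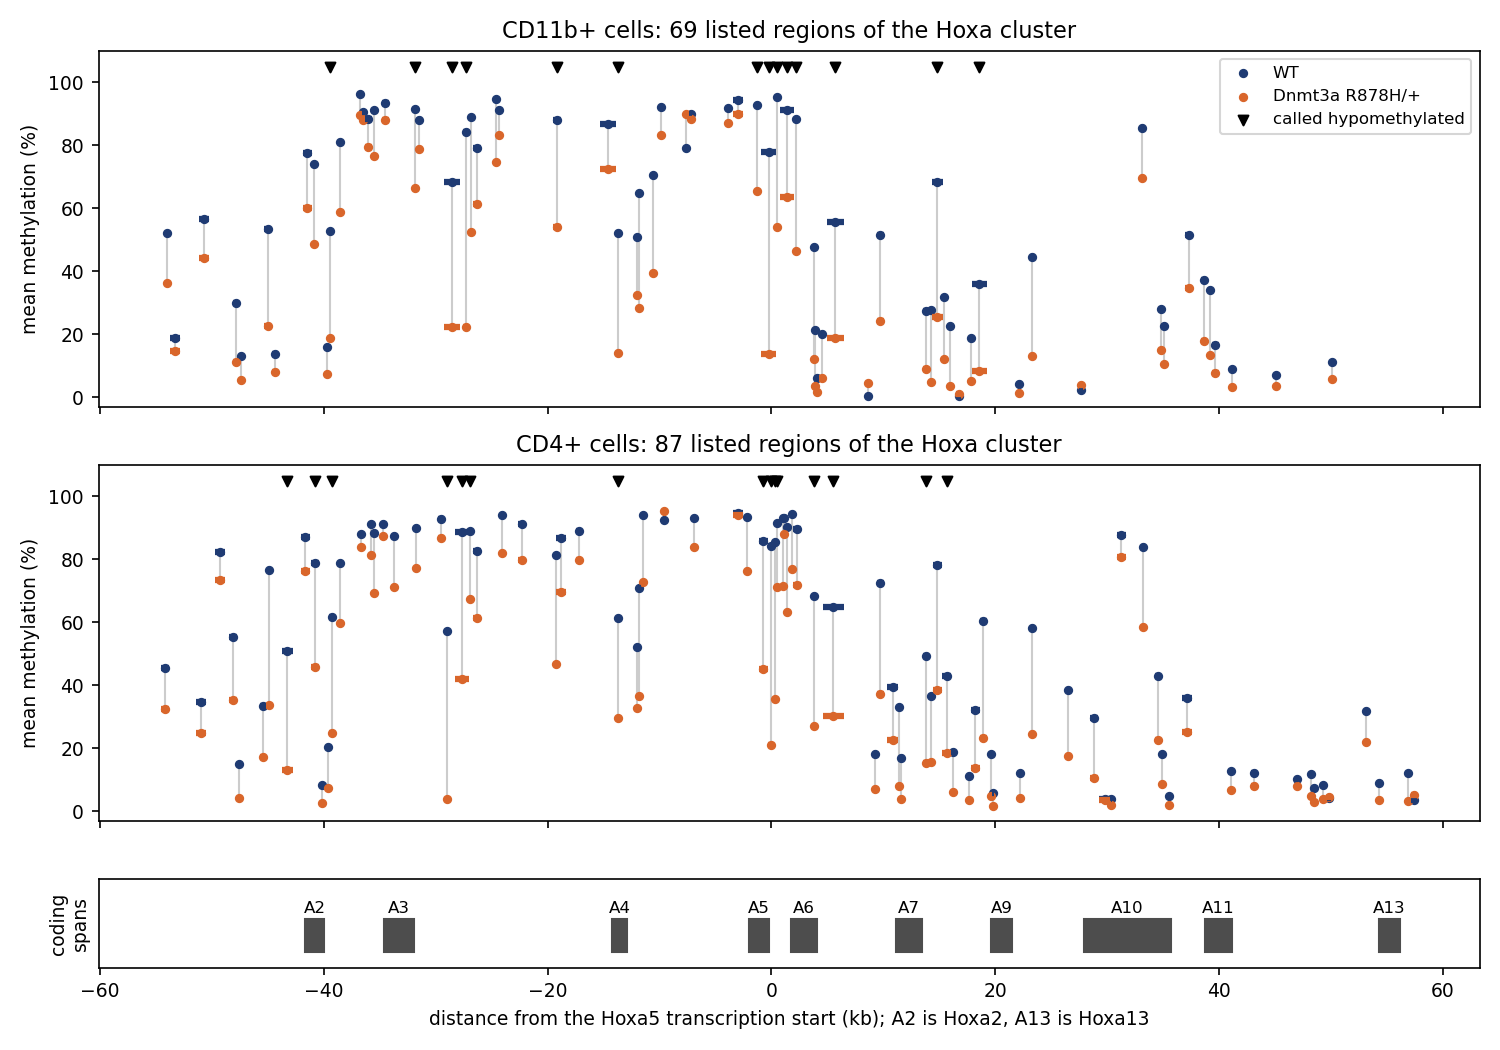
Mean methylation in percent of each listed region of the Hoxa cluster against its distance in kb from the Hoxa5 transcription start, for WT (blue) and Dnmt3a R878H/+ (orange) cells, with CD11b+ cells above and CD4+ cells in the middle. Grey lines join the 2 means of a region, triangles mark regions called hypomethylated, and grey boxes are coding spans. At the Hoxa5 start the means fell from 77.9% to 13.7% in CD11b+ cells and from 84.3% to 21.02% in CD4+ cells.

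Hoxa2, which patterns the hindbrain and the branchial arches, had a start that was already little methylated in WT. The region across it went from 16.0% in WT to 7.50% in Dnmt3a R878H/+ CD11b+ cells, and from 20.5% to 7.55% in CD4+ cells. The 300 bases upstream hold few CpGs, as the printed sequence shows. A short way further upstream, chr6:52165048-52165260 measured 52.9% in WT and 18.8% in the mutant CD11b+ cells, the only called region of Hoxa2 in that cell type. In CD4+ cells 3 regions were called, with means of 51.0% against 13.2%, 78.7% against 45.8% and 61.6% against 24.9%. Regions at the anterior end of the window count here too, because Hoxa2 is the most anterior of the 9 genes.

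Hoxa3, needed for the thymus and the parathyroid, was highly methylated over its exons in WT and had its largest differences upstream of its coding span. In CD11b+ cells the region chr6:52168001-52168257 went from 90.6% to 88.1%, the smallest Hoxa3 difference. An exon region, chr6:52172629-52172888, fell from 91.4% to 66.4% and was called. Upstream, chr6:52177033-52177560 fell from 84.3% to 22.4% and chr6:52175310-52176792 from 68.4% to 22.4%. In CD4+ cells chr6:52175515-52175695 fell from 57.2% to 3.79% and chr6:52176291-52177534 from 88.5% to 41.9%. The smallest Hoxa3 difference in CD4+ cells was 3.79 points, from 91.2% to 87.4% at chr6:52169711-52170093. The upstream regions lie at the starts of the antisense RNA Hoxaas3 and of 5730596B20Rik on the opposite strand, inside the long Hoxa3 gene model. Which of these genes they belong to cannot be told from position. The main Hoxa3 start lies further upstream, near Hoxa7, and in no listed region. The nearest region in CD11b+ cells, 56 bp away, had 0.318% in WT and 4.52% in Dnmt3a R878H/+. In CD4+ cells the nearest lay 591 bp away and went from 18.3% to 7.21%. Both count for Hoxa7 by distance to the coding span.

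Hoxa4, a gene for the identity of the neck vertebrae, had a called region within 1 kb of its start in both cell types. At chr6:52190705-52191104 the mean went from 52.2% to 14.1% in CD11b+ cells, and the nearly identical region of CD4+ cells went from 61.4% to 29.6%. A region between the coding spans of Hoxa3 and Hoxa4, chr6:52185058-52185790, fell from 88.0% to 54.0% in CD11b+ cells. Upstream of the start, chr6:52192470-52192686 had the same bounds in both tables and much the same means, 50.9% against 32.4% in CD11b+ cells and 52.2% against 32.8% in CD4+ cells.

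Between Hoxa4 and Hoxa5 the DNA near Hoxa4 lost methylation, and the rest stayed highly methylated, though not without losses. Nearer Hoxa4, chr6:52192691-52192872 went from 64.7% to 28.2% and chr6:52193960-52194141 from 70.7% to 39.5% in CD11b+ cells, and chr6:52193058-52193248 from 94.2% to 72.7% in CD4+ cells. From 10.5 to 2 kb from the Hoxa5 start on the Hoxa4 side, a stretch chosen after its values were seen, the 5 regions of CD11b+ cells had a median of 91.8% in WT and 88.4% in Dnmt3a R878H/+. The 4 regions of CD4+ cells had 93.1% and 89.0%. Among them chr6:52202230-52202606 went from 93.3% to 76.2% and chr6:52197525-52197891 from 93.0% to 83.9%. This stretch held the largest gain of the cluster, chr6:52196910-52196965, with 79.1% in WT CD11b+ cells and 89.9% in Dnmt3a R878H/+. It rests on exactly 10 cytosines, too few for the region to be called. In CD4+ cells a neighbouring region, chr6:52194874-52195176, went from 92.4% to 95.4%. At the 3′ end of Hoxa5, chr6:52201153-52202009 kept its level in both tables, with 94.4% and 89.9% in CD11b+ cells, beside 94.8% and 94.2% in CD4+ cells.

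Hoxa5, which acts in lung development and in the commitment of blood progenitors, showed the sharpest change of level in the cluster. The region across its start, chr6:52203675-52204998, went from 77.9% in WT to 13.7% in Dnmt3a R878H/+ CD11b+ cells, a difference of 64.2 points. This mean rests on 97 of the 230 CpG cytosines in the region. In CD4+ cells the same DNA was listed as 3 regions, which went from 85.7% to 45.3% at chr6:52203500-52204263, from 84.3% to 21.02% at chr6:52204300-52204768 and from 85.4% to 35.7% at chr6:52204801-52204998. The lowest of these Dnmt3a R878H/+ means belonged to the region that holds the start. Among all regions within 1 kb of a transcription start, 26234 for CD11b+ and 30743 for CD4+ cells, the Hoxa5 start regions had the largest differences. From 2 kb on the Hoxa4 side of the start to 2.5 kb on the Hoxa6 side, 5 of 5 regions were called in CD11b+ cells, with Dnmt3a R878H/+ means from 13.7% to 65.4%. In CD4+ cells 4 of 9 were called there, and the Dnmt3a R878H/+ means ranged from 21.02% to 87.9%.

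Hoxa6, a neighbour of Hoxa5 with a role in skeletal patterning, combined a start of low methylation in CD11b+ cells with methylated DNA further out that fell. The region across the start, chr6:52208534-52208816, measured 6.24% in WT CD11b+ cells and 1.78% in Dnmt3a R878H/+. The adjoining CD11b+ regions were also low in WT, 21.2% at chr6:52208482-52208526 and 20.2% at chr6:52208848-52209407. In CD4+ cells no listed region covered the Hoxa6 start, and the nearest lay 224 bp away. The sequence upstream of Hoxa6 holds almost as many CpGs as that of Hoxa5. Yet the WT levels of the start regions in CD11b+ cells were 6.24% and 77.9%. At its 3′ end, chr6:52206605-52206941 fell from 88.3% to 46.5% in CD11b+ cells. Upstream, chr6:52209539-52211035 fell from 55.5% to 18.9% in CD11b+ cells, and the overlapping CD4+ region fell from 65.0% to 30.4%. The CD4+ region just inside the gene, chr6:52208240-52208498, fell from 68.2% to 27.2%, and the matching CD11b+ region had 47.7% and 12.2%.

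Hoxa7, known for its expression in blood progenitors, was methylated at intermediate levels and lost methylation in nearly all of its regions. In CD11b+ cells chr6:52218940-52219899 fell from 68.2% to 25.6%, the largest Hoxa7 difference there. In CD4+ cells chr6:52218177-52218698 fell from 49.2% to 15.2% and chr6:52219850-52220669 from 43.1% to 18.4%, while chr6:52219003-52219849 went from 78.3% to 38.6% without passing the q-value. All 10 Hoxa7 regions of CD4+ cells were lower by at least 11.1 points. The exception in CD11b+ cells, chr6:52213171-52213302, was nearly unmethylated, at 0.318% in WT and 4.52% in Dnmt3a R878H/+. It counts for Hoxa7 by distance to the coding span, but lies outside that gene, 56 bp from the main Hoxa3 start.

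Hoxa9, a factor for self-renewal of blood stem cells and a driver in leukaemia, had low methylation in WT and little left in Dnmt3a R878H/+ cells. At its 3′ end chr6:52222541-52223827 fell from 36.1% to 8.32% in CD11b+ cells, the only called Hoxa9 region. The CD4+ region over part of the same DNA, chr6:52223206-52223827, went from 60.4% to 23.4% without passing the q-value. Just upstream of the main start, chr6:52227704-52228130 had the same bounds in both tables, with 44.5% against 13.2% in CD11b+ cells and 58.3% against 24.5% in CD4+ cells. Regions close to 0 changed little. In CD11b+ cells chr6:52221122-52221556 had 0.375% and 1.07%, and in CD4+ cells chr6:52224352-52224486 had 5.90% and 1.60%.

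Hoxa10 and Hoxa11, which pattern the limbs, the kidney and the reproductive tract, had no called region in either cell type. For Hoxa10 in CD11b+ cells none of the 4 regions held more than 10 cytosines, so none could be called. Its start was unmethylated in CD4+ cells, with 3.85% in WT and 2.10% in Dnmt3a R878H/+. The largest Hoxa10 difference was 15.8 points in CD11b+ cells (85.3% to 69.5%) and 25.4 points in CD4+ cells (83.9% to 58.6%). The region at the Hoxa11 start had 9.00% and 3.25% in CD11b+ cells, and its neighbour in CD4+ cells had 12.9% and 6.88%. Among the regions counted for Hoxa11, the largest difference was 20.6 points in CD11b+ cells, on 10 cytosines, and 9.82 points in CD4+ cells. The CD4+ value belongs to a region that overlaps the Hoxa13 gene, which is not among the 9 genes. That region went from 31.9% to 22.02%. From the Hoxa11 start to Hoxa13 almost everything else was below 13% in both genotypes.

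**Figure D2:**
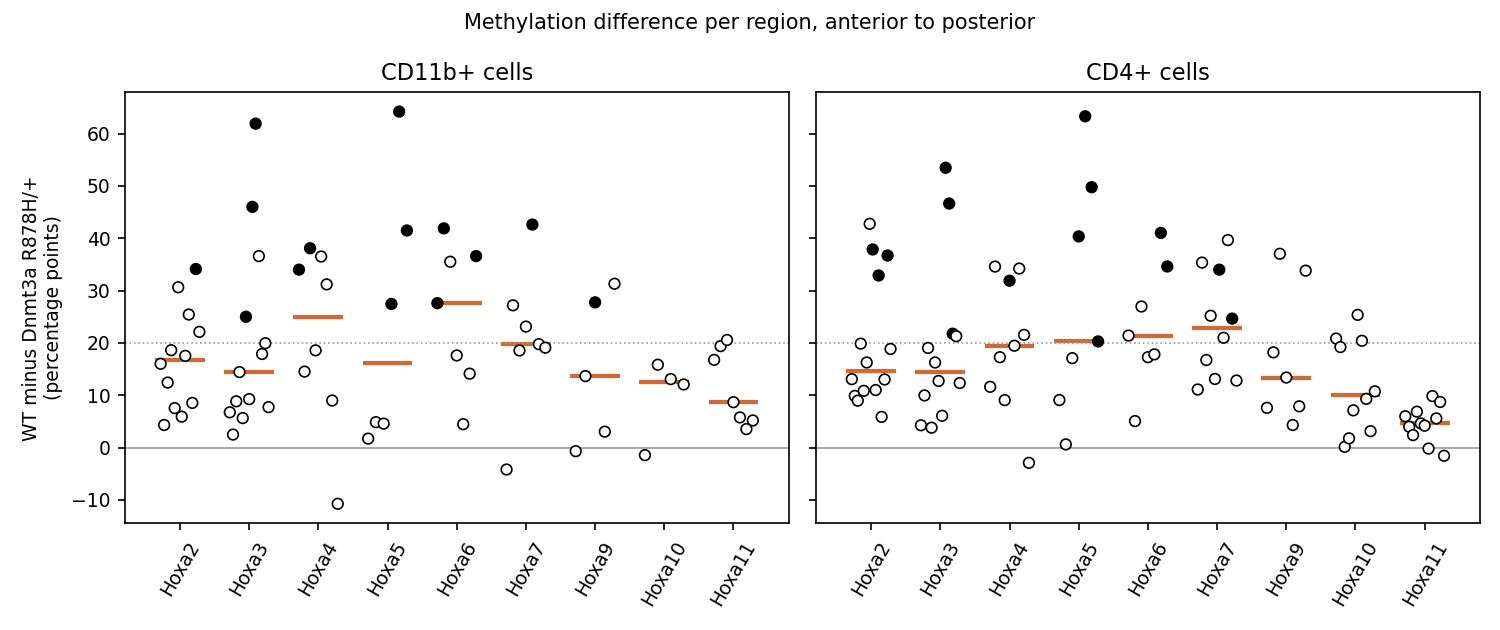
Difference of mean methylation, WT minus Dnmt3a R878H/+, in percentage points for every listed region, by gene from anterior to posterior in CD11b+ cells (left) and CD4+ cells (right). Filled circles are called hypomethylated, orange bars are medians and the dotted line is the 20-point threshold. Filled circles run from Hoxa2 to Hoxa9 in CD11b+ cells and from Hoxa2 to Hoxa7 in CD4+ cells, and the Hoxa11 medians are 8.67 and 4.60 points.

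Read from anterior to posterior, the WT level was higher from Hoxa3 to Hoxa5 than from Hoxa7 to Hoxa11, without a steady fall. In CD11b+ cells the median WT mean per gene was 52.5% for Hoxa2, 90.6% for Hoxa3, 74.9% for Hoxa4, 92.3% for Hoxa5 and 47.7% for Hoxa6. It was 27.9% for Hoxa7, 18.8% for Hoxa9, 25.3% for Hoxa10 and 16.5% for Hoxa11. In CD4+ cells it was 53.2% for Hoxa2, between 86.8% and 91.5% from Hoxa3 to Hoxa6, 38.0% for Hoxa7, 18.4% for Hoxa9, 32.9% for Hoxa10 and 10.4% for Hoxa11. Spearman's rho between gene order and median WT level was -0.83 in CD11b+ cells and -0.68 in CD4+ cells over 9 genes, and between gene order and median difference -0.57 and -0.43. These values describe neighbouring genes of the same libraries. The median difference peaked in the middle of the cluster, at 27.6 points for Hoxa6 in CD11b+ cells and 22.8 points for Hoxa7 in CD4+ cells. It was lowest for Hoxa11, at 8.67 and 4.60 points. The place of the peak depended on the assignment: by nearest start it was Hoxa9 in CD11b+ cells (27.7 points) and Hoxa6 in CD4+ cells (34.6 points). In proportion to WT, the share kept did not change steadily along the cluster. Spearman's rho between gene order and the median share kept was -0.42 (CD11b+) and -0.68 (CD4+) over 9 genes. The median Hoxa9 region kept 28.9% of its WT methylation in CD11b+ cells and 34.6% in CD4+ cells, and the median Hoxa11 region 48.0% and 53.5%. The median Hoxa3 region kept 84.2% and 83.6%.

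The size of a possible difference depends on the WT level, so Hoxa regions were set beside all regions of the same 10-point class of WT mean. The Hoxa difference was above the class median in 56 of 69 regions of CD11b+ cells and in 71 of 87 of CD4+ cells. It was above the 95th percentile of its class in 26 and 35 regions. If regions of each class had been called at the rate of that class, 2.03% of the Hoxa regions above 10 cytosines would have been called in CD11b+ cells and 2.36% in CD4+ cells. Because the window was chosen on the same contrast, these counts describe it and test nothing. The Hoxa regions with a WT mean under 10%, too low for a 20-point loss, had median differences of 3.04 points in CD11b+ cells (7 regions) and 3.65 points in CD4+ cells (10 regions).

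**Figure D3:**
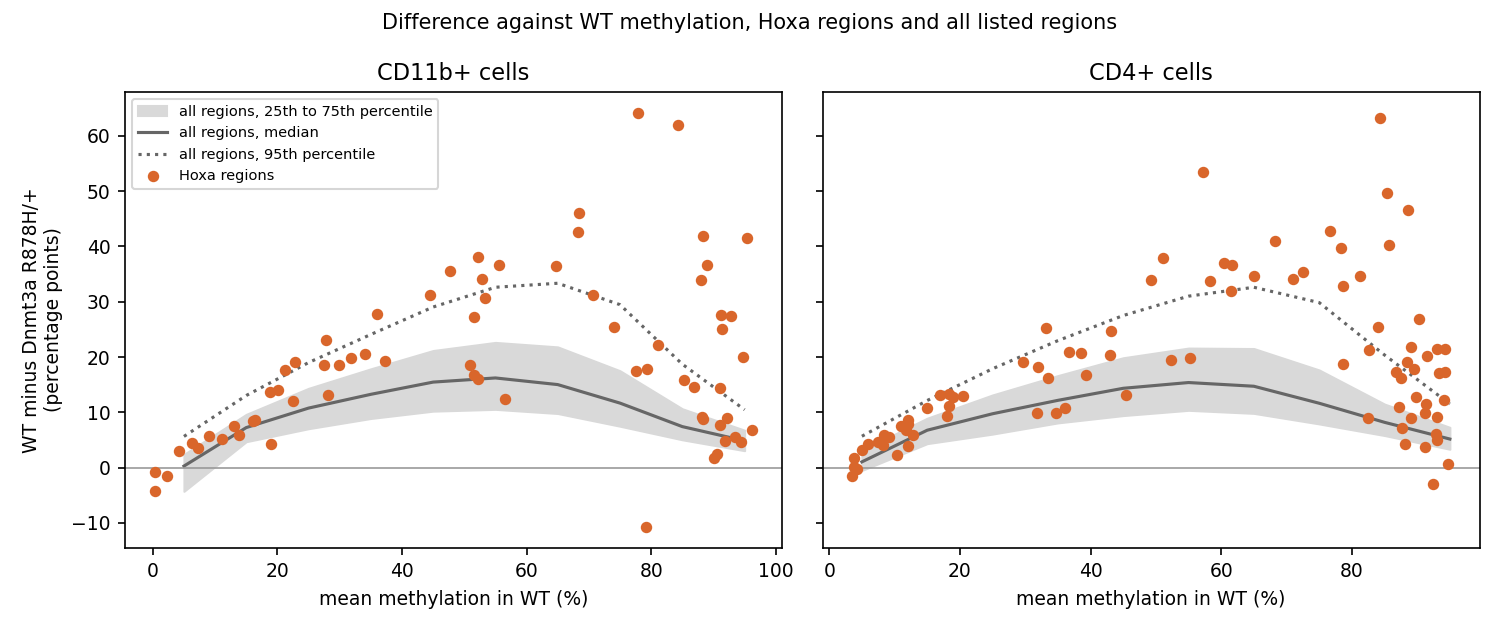
Difference of mean methylation, WT minus Dnmt3a R878H/+, in percentage points against the WT mean in percent, for Hoxa regions (orange points) in CD11b+ cells (left) and CD4+ cells (right). The line, the band and the dotted line are the median, the 25th to 75th percentile and the 95th percentile of all listed regions in 10-point classes of the WT mean. Of the Hoxa regions, 26 of 69 and 35 of 87 lie above the 95th percentile of their class.

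Hoxa regions, like those of the other Hox clusters, were richer in CpGs and more often near transcription starts than the listed regions as a whole. Their median density was 3.38 CpGs per 100 bp in CD11b+ cells and 2.95 in CD4+ cells, beside 1.67 and 1.58 over all regions. Within 1 kb of a start lay 43.5% and 41.4% of them, beside 6.37% and 5.55%. Median densities were 2.45 and 2.55 in Hoxb, 3.125 and 4.05 in Hoxc, and 2.92 and 2.84 in Hoxd. Of the Hoxb regions 15.2% and 19.6% lay near starts, of Hoxc 24.1% and 24%, and of Hoxd 45.5% and 36.2%. The Hoxa regions near starts had a median difference of 27.4 points in CD11b+ cells and 20.6 points in CD4+ cells, and those elsewhere 12.4 and 12.7 points. All listed regions near starts had 7.99 and 8.84 points.

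Among highly methylated regions, with a WT mean of at least 75%, CpG-dense Hoxa regions differed more between genotypes than dense regions elsewhere. In the 10 such Hoxa regions with at least 5 CpGs per 100 bp, the median difference was 23.6 points in CD11b+ cells, and in the 10 of CD4+ cells it was 21.01 points. Over all regions of that density and level it was 3.35 and 3.18 points. The sparse Hoxa regions, under 3 CpGs per 100 bp, had 11.9 and 11.6 points, and all sparse regions 6.00 and 6.50. The Hoxa regions of middle density had 8.83 points in CD11b+ cells (7 regions) and 20.2 points in CD4+ cells (8 regions), so the difference did not rise step by step with density. Spearman's rho between density and difference was 0.26 in CD11b+ cells and 0.32 in CD4+ cells over 27 and 37 Hoxa regions, and -0.11 and -0.15 over all. These points are neighbouring regions of the same libraries. Fewer cytosines were measured here too. The measured share of the CpG cytosines in Hoxa regions was 54.5% and 57.1%, beside 69.1% and 74.99% over all regions. In the regions with at least 50% of their cytosines measured, the median Hoxa difference was 16.4 points in CD11b+ cells and 13.2 points in CD4+ cells.

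The cell types were compared on the 18851 bases that both tables list, in 74 segments. Weighted by shared bases, the WT mean was 63.0% for CD11b+ and 68.7% for CD4+ cells. In Dnmt3a R878H/+ it was 34.3% and 42.3%, so the difference was 28.7 points in CD11b+ cells and 26.4 points in CD4+ cells. This gap of -2.29 points was -1.04 points with a reciprocal overlap of at least 50% and -0.79 points where at least 50% of the cytosines were measured. Over all shared bases of the tables it was 0.39 points. A region mean also covers bases outside the shared part, and the tables give no error for the gap between cell types. WT CD4+ cells had more methylation than WT CD11b+ cells at Hoxa7 by 13.9 points, at Hoxa9 by 10.4 points and at Hoxa6 by 9.47 points. The gap was smaller at Hoxa2 to Hoxa5, and it ran the other way at Hoxa11 (48.3% in CD11b+ and 34.3% in CD4+ cells) and at Hoxa10 (64.1% and 61.2%). Hoxa11 and Hoxa10 had only 645 and 536 shared bases, and 596 of the Hoxa11 bases were a single segment. Over all shared bases of the tables, WT CD4+ cells were higher by 2.24 points. At Hoxa5, WT levels were close, 85.3% and 89.1%, and the Dnmt3a R878H/+ levels were 45.3% and 59.4%. The Hoxa5 difference was thus 10.2 points smaller in CD4+ cells, over 2256 shared bases. It was uneven there. In the 469-base segment with the start, the differences were 64.2 points in CD11b+ and 63.3 points in CD4+ cells. In a neighbouring segment of 589 bases, they were 64.2 and 40.3 points. Both segments have the same CD11b+ region mean. At Hoxa7 the difference was 3.27 points larger in CD4+ cells (2650 bases), and at Hoxa10 it was 5.34 points larger (536 bases).

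**Figure D4:**
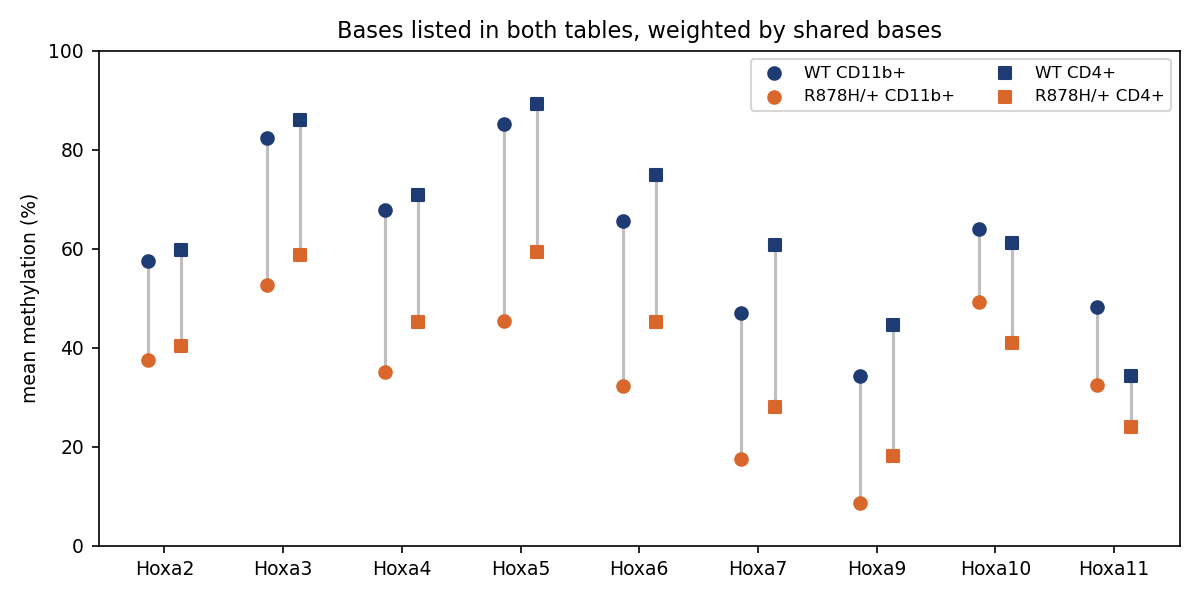
Mean methylation in percent over the bases listed in both tables, weighted by shared bases, for each of the 9 Hoxa genes in CD11b+ cells (circles) and CD4+ cells (squares), WT in blue and Dnmt3a R878H/+ in orange. Grey lines join the genotypes. At Hoxa5 the Dnmt3a R878H/+ means are 45.3% and 59.4%, and at Hoxa7 the WT means are 47.0% and 60.8%.

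The called regions of the cell types overlapped in part. Of the 14 called in CD11b+ cells, 9 touched a called region of CD4+ cells (64.3%), and of the 15 called in CD4+ cells, 11 touched one of CD11b+ cells (73.3%). Over all called regions of the tables these shares were 54.4% and 35.3%. By length, the shared part was 43.7% of the called bases of CD11b+ cells and 51.5% of those of CD4+ cells, beside 44.9% and 29.0% over all called regions. It lay in the regions of Hoxa2, Hoxa3, Hoxa4, Hoxa5, Hoxa6 and Hoxa7. In 4 regions the bounds were the same in both tables, and the region at the 3′ end of Hoxa7 among them, chr6:52214059-52214619, went from 51.5% to 24.3% in CD11b+ cells and from 72.6% to 37.2% in CD4+ cells.

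The other Hox clusters hold the nearest relatives of these genes. Hoxb regions had a median difference of 11.9 points in CD11b+ cells and 11.2 points in CD4+ cells, with 9 of 55 and 9 of 57 called. In Hoxc 0 of 15 and 0 of 24 regions were called, with medians of 7.48 and 5.94 points. In Hoxd 0 of 15 and 0 of 26 were called, with medians of 6.66 and 8.00 points. Hoxc and Hoxd were also the less methylated clusters in WT, with medians of 15.5% and 27.6% in CD11b+ cells, beside 53.4% for Hoxa and 58.6% for Hoxb. With no values per mouse, the difference between clusters could not be tested.

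**Figure D5:**
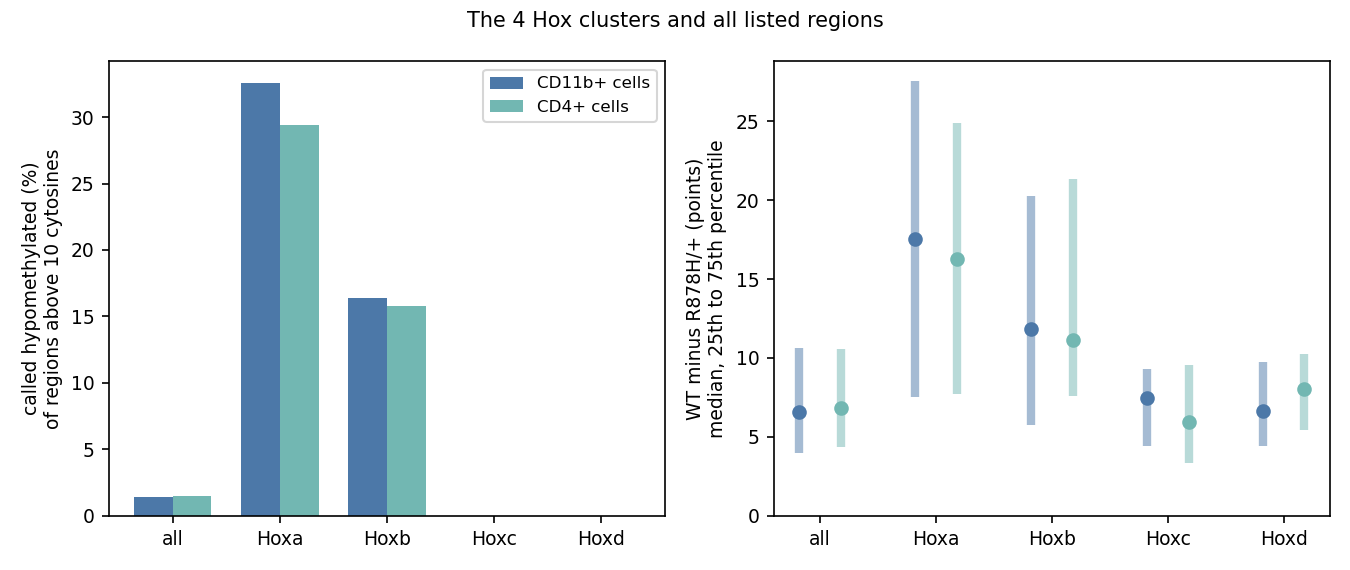
Share of regions above 10 CpG cytosines that were called hypomethylated, in percent (left), and the median difference WT minus Dnmt3a R878H/+ in percentage points with the 25th to 75th percentile (right), for all listed regions and the 4 Hox clusters in CD11b+ cells (blue) and CD4+ cells (green). Hoxa has 32.6% and 29.4%, Hoxb 16.4% and 15.8%, and Hoxc and Hoxd have no called region.

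Hox proteins bind DNA together with cofactors, among them those encoded by Meis1 and Pbx3. Meis1 had 3 called of 31 regions (CD11b+) and 4 of 33 (CD4+). Pbx3 had 0 of 6 and 1 of 6. These are counts of regions above 10 cytosines, of which 1.38% and 1.49% were called over the whole tables. Among 15 regulators of Hox genes, such as the methyltransferase gene Kmt2a and the Polycomb gene Ezh2, none of the 11 with regions was called in CD11b+ cells, and 1 of 13 was in CD4+ cells, Cdx1. The regulators are counted as genes. Over all protein-coding genes with a listed region above 10 cytosines, the shares with a called region were 8.41% and 10.5%. The microRNA gene Mir196b, which lies between Hoxa9 and Hoxa10, was in no listed region. The nearest lay 1933 bp away in CD11b+ cells (2.35% to 3.8%) and 769 bp away in CD4+ cells (38.5% to 17.7%).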

How the data were processed

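DNA of splenic CD11b+ and CD4+ cells was converted with bisulfite and sequenced, and the authors aligned them (BISCUIT, mm10) and compared the genotypes with metilene. The deposited tables, 1 per cell type and without a header, hold regions with the group means in percent, their difference, the number of CpG cytosines, p-values from a Mann-Whitney and a Kolmogorov-Smirnov test and a q-value that the authors' program adjusted. Tool versions, the program's run parameters and a minimum coverage per site are not given in the sources used here. The limits that define a DMR are those of the study's methods. The files have 0 columns of unmapped samples. In no region did the number of cytosines exceed those on both strands of the sequence, and it exceeded the dinucleotides in 86.3% (CD11b+) and 92.4% (CD4+) of regions, so both strands were counted. Means of regions with 10 cytosines were whole multiples of what 4 samples give in 100% of cases.

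The deposited percent means and q-values were used as they stand, with coordinates counted from 1. Hoxa regions and gene lists were chosen with earlier results of these data known. Genes came from GENCODE release 21 and a promoter was any base within 1 kb of a start. All 9 genes were named, with the regions of the largest and the smallest difference, called regions and starts, and the genes with the most called regions among Hox regulators and cofactors. Some results, the counts over the cofactors among them, are not reported here. The stretch between Hoxa4 and Hoxa5, the stretch around the Hoxa5 start and the other regions were picked after their values were seen. The counting of calls and the assignment to genes were tested on simulated data. Software was pandas 2.3.3, numpy 2.4.6, scipy 1.17.1 and matplotlib 3.10.9 under python 3.11.15. Alternatives were other q-value, difference and cytosine limits, other assignments to genes, stricter overlap and regions with at least 50% of cytosines measured. The last of these and the assignment by whole gene were chosen after seeing the data.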

Additional observations from a re-analysis of the deposited data

How the results depend on the processing

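No difference changed its direction under the alternatives run. Requiring more than 20 CpG cytosines lowered the called Hoxa regions to 8 of 10 in CD11b+ cells and 9 of 16 in CD4+ cells, and raised the median difference in CD11b+ cells to 30.9 points; fewer regions were eligible. Dropping the q-value raised the count in CD4+ cells to 23. The gap between cell types, CD4+ minus CD11b+, was -2.29 points, and -1.04 points with a reciprocal overlap of at least 50% (26 segments) and -0.79 points where at least 50% of cytosines were measured (46 segments); the cause was not tested. Of the medians per gene under other assignments, 47 stayed within 1.5-fold and 7 moved further, among them Hoxa5 in CD11b+ cells, at 27.5 points by nearest start and 27.4 by whole gene in place of 16.1. Leaving out a mouse was not possible, since the tables hold group means. No paired analysis was possible because the tables hold only group means and carry no replicate numbers. Without depth, a small difference near 0% or 100% cannot be told from counting error.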
